A study of Mus musculus with 4 samples.

Results

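The genes of the cytosolic ribosomal proteins were examined in RNA sequencing of YFP-positive neural stem cells (NSCs) of adult mice. Members were chosen by symbol (Rpl or Rps with a number, Rplp0, Rplp1, Rplp2 and Rpsa, without the S6 kinases and without pseudogenes named as such) and by a measured level, a normalised read count of at least 100 in all 4 libraries. Of 89 genes with such a symbol, 79 met the minimum, out of 55421 gene identifiers in the series. Both groups carried Nestin-CreERT2 and the Rosa26-YFP reporter on a C57BL/6 background, both received tamoxifen as young adults, and the Opa1 KO mice also carried floxed Opa1 on both alleles. The time from tamoxifen to the sort is uncertain, since the study's methods give about a month and its discussion a shorter interval for these cells. YFP+ cells were sorted from microdissected tissue, which the study's text places in the subventricular zone, and 2 libraries were made from WT and 2 from Opa1 KO cells. Nestin-CreERT2 marks stem cells and whatever they give rise to, and it can also mark other Nestin-expressing cells, so the sort is a mixture. The labels do not say whether libraries came from separate animals, so every p-value below measures only the spread between these libraries, which may be technical.

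Ribosomal proteins are the protein part of the ribosome, built onto ribosomal RNA largely in the nucleolus as a small subunit (Rps genes), which reads the mRNA, and a large subunit (Rpl genes), which forms the peptide bond. Most are needed in equal number, and their mRNAs share a terminal oligopyrimidine (TOP) motif, a cap-site C followed by an uninterrupted run of C and U. Through it, mTOR signalling and the binding protein LARP1 set how much these mRNAs are translated and how stable they are. In adult neurogenic niches, protein synthesis is low in quiescent stem cells and rises when they are activated.

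The motif is shown for the genes that carry its clearest forms and for a pair of paralogues that differ in it. The sequences are the first 24 bases of an annotated transcript (GENCODE M21, mm10), with the run that begins at base 1 with C and goes on with at least 4 pyrimidines in capitals.
Rps24: CTCTTTTCCTCCTCTCCagctccg
Rpl32: CTTCCTTCTTCCTCggcgctgcct
Rps2: CTTCTTCTTCTTCgggagaacacg
Rps27: CCTTTCCggcggtgacgacctccc
Rps27l: gcctctatcccggaagttgctgag
These windows lie at chr14:24490718-24490741 on the plus strand (Rps24), chr6:115808724-115808747 on the minus strand (Rpl32), chr17:24720110-24720133 on the plus strand (Rps2), chr3:90213625-90213648 on the minus strand (Rps27) and chr9:66946086-66946109 on the plus strand (Rps27l). All 5 are the 5′ ends of protein-coding transcripts. The run was 17 bases long in Rps24, 14 in Rpl32, 13 in Rps2 and 7 in Rps27. Rps27l, whose product is a close relative of that of Rps27, has no such start among its annotated transcripts. Searched on the transcript strand only (C, then 4 or more of C or T), such a start was annotated in at least 1 transcript of 21 of the 78 protein-coding members (26.9%), against 837 of 14424 protein-coding genes tested (5.80%). Annotated starts can miss the true cap site, so the absence of these letters at an annotated start says nothing about the motif in the cell.

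Opa1, the deleted gene, encodes a GTPase of the mitochondrial inner membrane that fuses it and shapes the cristae. It stood at 3039 and 2833 normalised reads in WT and at 837 and 739 in Opa1 KO, in the direction of the labels (log2 difference -1.90, SE 0.13). Recovered reads assigned to genes ranged from 19985853 to 23237326 per library. Both the size factors and the totals are close, so the members were measured at a similar depth everywhere.

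Together the 79 genes took a small part of all reads. Their share was 0.884% in WT replicate 1 (95% Wilson interval 0.880 to 0.888%), 0.713% in WT replicate 2 (0.709 to 0.716%), 0.962% in Opa1 KO replicate 1 (0.958 to 0.966%) and 0.749% in Opa1 KO replicate 2 (0.745 to 0.752%). These intervals cover counting error only. The share averaged 0.798 ± 0.121% over the WT libraries and 0.855 ± 0.151% over the Opa1 KO libraries (SD, n = 2 each), and the libraries of the groups overlapped. The median normalised read count over the members ran in the same order, with 2212 and 1811 in WT and 2316 and 1835 in Opa1 KO.

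Divided by the length of the annotated principal transcript, the members had a median of 2971 normalised counts per kilobase, against 239.6 over the protein-coding genes tested and 353 over the 11296 of them that also have at least 100 in every library. As the members were chosen by level, this and the ranks that follow are a description. Of the 78 protein-coding members, 67 were in the top 10% of 14434 protein-coding genes by level per kilobase, and 5 were in the top 1%. The highest levels per kilobase belonged to Rps25 (7319), a small subunit protein used by viral internal ribosome entry sites, Rpl41 (6776), whose product is among the smallest proteins known, Rps14 (6032), a small subunit platform protein, Rps27 (5875), a zinc-finger protein of the small subunit, and Rpl13 (5798), a large subunit protein. This order depends on the length used. Over the union of all annotated exons, Rpl41 ranked 7th and Rps25 27th of the 79, and other genes, mainly Trappc4 on the other strand, cover 24.8% of the exons of Rps25. The lowest were Rpl13a (179), Rps20 (266), the retrogene Rps4l (291) and Rps15a (297). Rps20 and Rps15a are divided here by annotated transcripts of 3706 and 5130 bases, far longer than the members' median of 774.

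**Figure D1:**
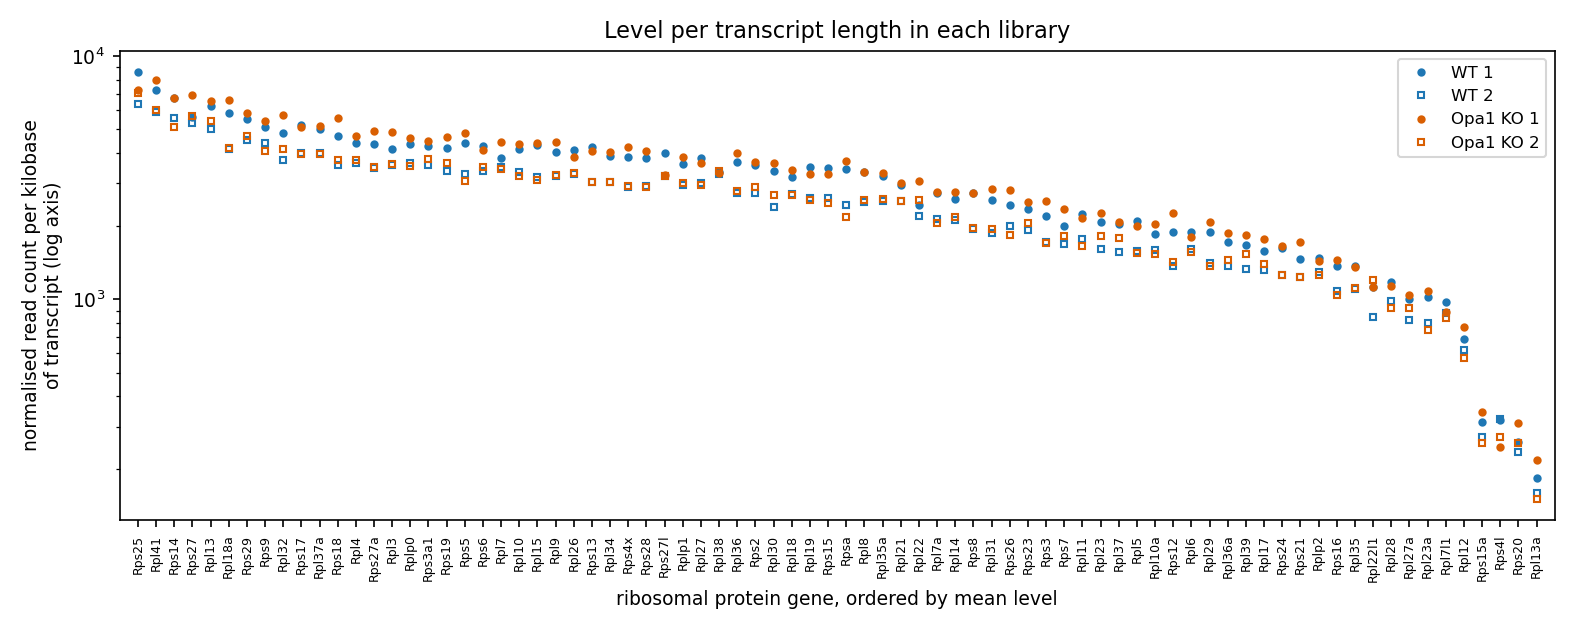
Normalised read count per kilobase of annotated transcript (log axis) of 78 of the 79 ribosomal protein genes, ordered by mean level, in WT (blue) and Opa1 KO (orange) libraries, with filled circles for replicate 1 and open squares for replicate 2. For most genes the filled symbols lie above the open ones in both colours, and the mean level runs from 7319 for Rps25 down to 179 for Rpl13a.

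No member was called different between Opa1 KO and WT by limma, DESeq2 or edgeR. By limma-trend over 18547 genes, 0 of the 79 members passed an adjusted p of 0.05, where 0% of all genes tested did, and 0 members were under an unadjusted p of 0.05, where 666 genes were. The smallest adjusted p of a member by limma was 0.998. The deleted gene Opa1 also had a limma adjusted p of 0.998 in this fit, at a log2 difference of -1.90, so 0 calls here do not show that the members are unchanged. DESeq2 called 0 members on the recovered reads, where it called 64 genes or 0.345% of those tested, and edgeR called 0 members and 0% of 18729 genes. Neither DESeq2 nor edgeR put any member under an unadjusted p of 0.05. The median log2 difference of the members (Opa1 KO minus WT) was 0.04, against -0.01 over all genes tested and -0.03 over the 11779 genes that also have at least 100 in every library.

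The differences were narrow, as they were in some related lists. They had an SD of 0.09 across the 79 genes, against 0.24 across the genes with the same minimum, and 75 members lay within 0.2 of zero on the log2 scale. The SD was 0.095 over mitochondrial ribosomal protein genes, 0.10 over ribosome biogenesis genes and 0.15 over other listed TOP mRNA genes. The 95% limma intervals of the single members reached from -0.95 at the lowest to 0.98 at the highest, so each interval stayed inside a 2-fold change in either direction. There were 55 members above zero and 24 below. With scaling by library size only, which moved the median of all genes to 0.05, 70 were above zero. Both Opa1 KO libraries lay above both WT libraries for 2 members, Rpl22 and Rps27 (15.2% of all genes tested did so), and both lay below for 1, Rps4l (15.7% of all genes). Within a genotype the members' libraries differed by a median of 0.33 in WT and 0.37 in Opa1 KO on the log2 scale. Smaller genotype differences leave such groups overlapping, so these counts do not show that the members changed less than other genes.

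The near-zero median is an average over libraries that differ among themselves. Leaving out WT replicate 1 or Opa1 KO replicate 2 gave a median of 0.21 or 0.23. Without WT replicate 2 or Opa1 KO replicate 1 it was -0.12 or -0.16. Within same-numbered libraries the median difference, Opa1 KO minus WT, was 0.09 for replicates 1 and 0.01 for replicates 2.

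**Figure D2:**
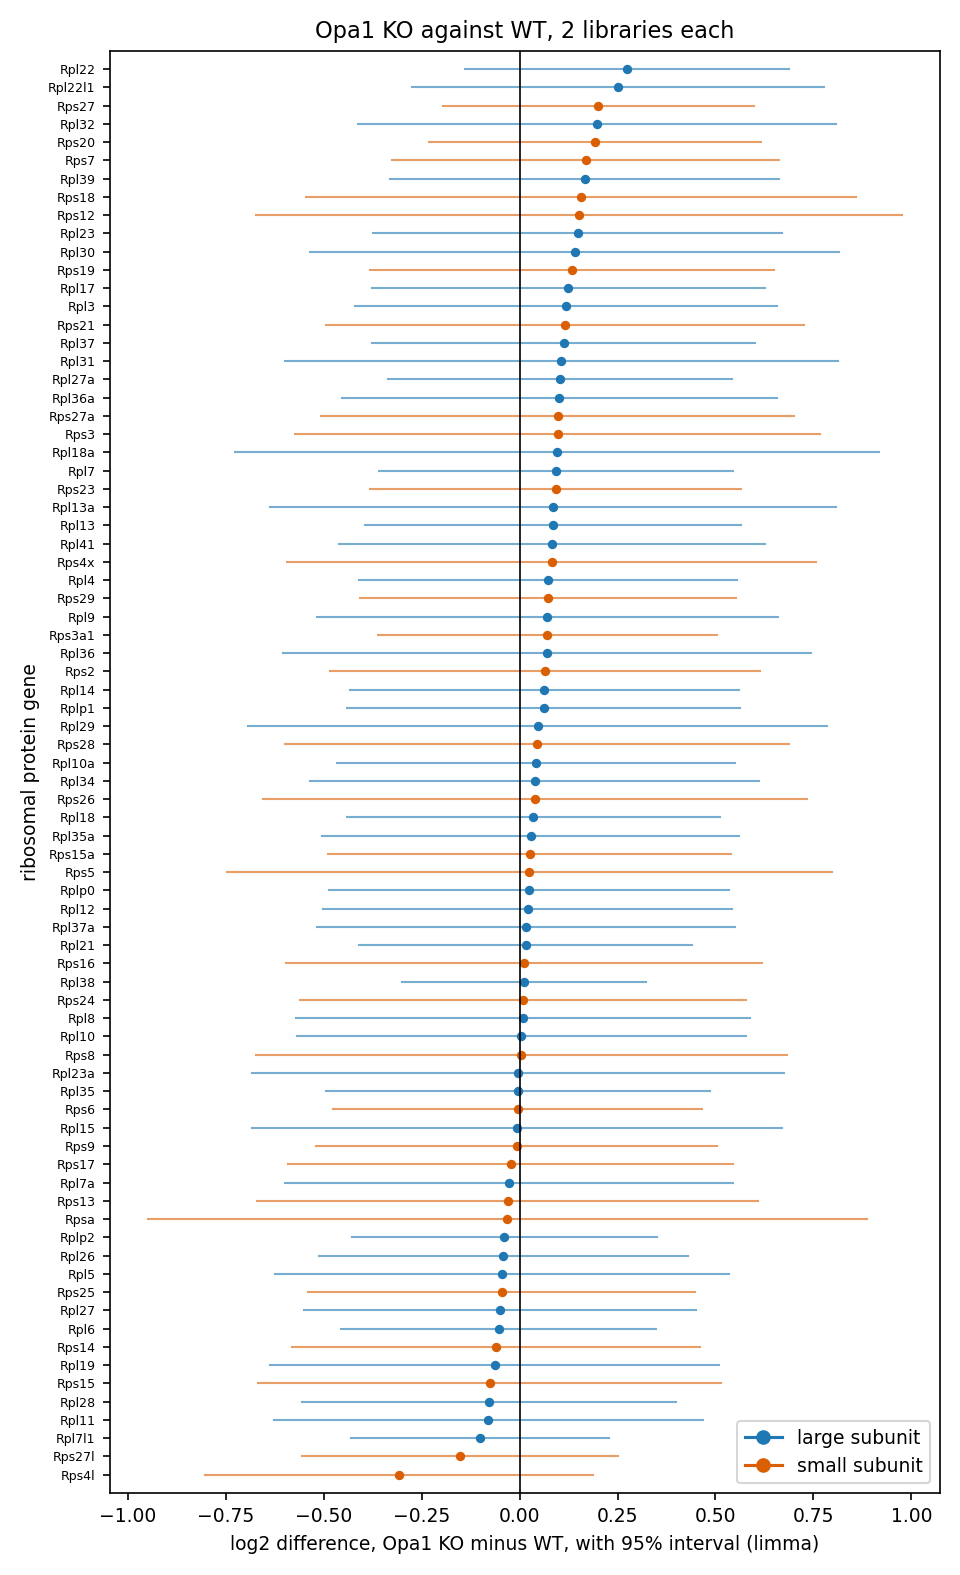
Log2 difference between Opa1 KO and WT of 78 of the 79 ribosomal protein genes (points) with its 95% interval from limma (lines), for the large subunit in blue and the small subunit in orange, 2 libraries per genotype. Every interval crosses zero, and the points run from -0.31 for Rps4l to 0.27 for Rpl22.

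Both subunits gave the same picture. The 47 large subunit genes had a median log2 difference of 0.04 (34 above zero, 13 below), and the 32 small subunit genes one of 0.03 (21 above, 11 below). In each of the functional groups that follow, 0 genes were called by limma, DESeq2 or edgeR.

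The stalk of the large subunit, which recruits the elongation factors and stimulates their GTPase, is built from the products of Rplp0, Rplp1 and Rplp2. Rplp0 had normalised read counts of 5920.1 and 4948 in WT and 6275 and 4821 in Opa1 KO, a log2 difference of 0.02 (SE 0.19). Rplp1 had 1795 and 1476 in WT and 1918 and 1505 in Opa1 KO, a log2 difference of 0.06 (SE 0.19). Rplp2 had 1427 and 1255 in WT and 1393 and 1219 in Opa1 KO, a log2 difference of -0.04 (SE 0.15). The groups overlapped for all 3, and the higher library of each genotype was replicate 1.

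Rpl5 and Rpl11 encode the proteins that carry 5S ribosomal RNA into the large subunit and that, when free, inhibit the p53 ubiquitin ligase MDM2. Rpl5 stood at 4299 and 3225 in WT and 4101 and 3175 in Opa1 KO (log2 difference -0.05, SE 0.22). Rpl11 stood at 1873 and 1475 in WT and 1792 and 1381 in Opa1 KO (log2 difference -0.08, SE 0.20), among the lowest differences of the members. For both genes the 2 libraries of a genotype were farther apart than the genotype means.

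The 6 genes of the peptidyl transferase centre and exit tunnel, the catalytic heart of the large subunit and the channel through which the new chain leaves, had a median log2 difference of 0.10 and were all above zero. They were Rpl39 (0.17, SE 0.19), Rpl17 (0.12, SE 0.19), Rpl3 (0.12, SE 0.20), Rpl4 (0.07, SE 0.18), Rpl8 (0.01, SE 0.22) and Rpl10 (0.0045, SE 0.21). For Rpl3 the normalised read counts were 5636 and 4822 in WT and 6602 and 4849.9 in Opa1 KO, with Opa1 KO replicate 1 standing above the other libraries. Each of the 6 was below zero, at -0.20 for Rpl8 and -0.22 for Rpl10 at the lowest, when 1 library was left out. The 5 genes at the rim of the tunnel exit had a median of -0.0047, the 4 at the mRNA entry and decoding site 0.08, and the 5 at the mRNA exit and platform 0.02.

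Rpsa, the laminin receptor protein of the small subunit, had the largest standard error of the members. It had 5523 and 3913 normalised counts in WT and 5906 and 3504 in Opa1 KO, and its log2 difference between genotypes was -0.03 (SE 0.33). Rps6, the classic substrate of S6 kinase downstream of mTOR, had 3755 and 2969.6 in WT and 3608 and 3069 in Opa1 KO, with a log2 difference of -0.0050 (SE 0.18). Rps27a, which encodes ubiquitin fused to a small subunit protein, had 2780.4 and 2209 in WT and 3137 and 2241 in Opa1 KO, with a log2 difference of 0.10 (SE 0.23). None of these genes separated the genotypes.

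Heterozygous loss of some ribosomal protein genes causes Diamond-Blackfan anaemia in humans. Of the 18 such genes looked at, 17 were members and all 18 were tested, with a median log2 difference of 0.03 (11 above zero, 7 below, 0 called by any of the tools). Rps19, the gene most often involved, had 3241 and 2614 normalised counts in WT and 3615 and 2824 in Opa1 KO (log2 difference 0.13, SE 0.19). The Opa1 KO libraries of Rps19 overlapped those of WT.

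The members with the highest differences were Rpl22, Rpl22l1, Rps27, Rpl32 and Rps20. Rpl22, which encodes a large subunit protein that binds viral and cellular RNAs and is not essential for growth in mice, had 1158 and 1042 in WT and 1457 and 1213 in Opa1 KO (1100.3 ± 82.0 and 1335 ± 173, SD, n = 2). Its log2 difference was 0.27 (95% interval -0.14 to 0.69, limma adjusted p = 0.998). The 2 Opa1 KO libraries were above both WT libraries. Rps27 had 1938 and 1825 in WT and 2387 and 1958 in Opa1 KO, a log2 difference of 0.20 (interval -0.20 to 0.60), and the lower Opa1 KO library exceeded the higher WT library by a small margin. Rpl32, a large subunit protein gene with 14 pyrimidines at its start, had 2507 and 1928 in WT and 2960.2 and 2150.2 in Opa1 KO (log2 difference 0.20, SE 0.23). Rps20, a small subunit gene, had 957 and 877 in WT and 1156 and 949.7 in Opa1 KO (log2 difference 0.19, SE 0.16). Rpl32 and Rps20 overlapped between the genotypes.

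At the low end, after the paralogues and Rpl11, came Rpl28, a large subunit gene, with 1306 and 1088 in WT and 1256 and 1016 in Opa1 KO (log2 difference -0.08, SE 0.18). Its groups overlapped.

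The paralogues, second copies that encode related proteins, had the 3 lowest differences of the members (Rps4l, Rps27l and Rpl7l1) and the second highest (Rpl22l1). Rps4l, annotated as a transcribed processed pseudogene, is the retrocopy of Rps4x at mm10 chr6:148354656-148355598 on the plus strand. It had 253 and 255 in WT and 196 and 214 in Opa1 KO, the lowest log2 difference of the members (-0.31, 95% interval -0.80 to 0.19), and neither Opa1 KO library reached the WT values. Rps4x itself (mm10 chrX:102184941-102189394, minus strand) had 3743 and 2824 in WT and 4141 and 2862 in Opa1 KO (log2 difference 0.08, SE 0.25). Parent and copy thus lay on opposite sides of zero, both within their intervals.

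Rps27l, a p53-induced relative of Rps27 on chromosome 9, had 1989 and 1612 in WT and 1620.5 and 1605 in Opa1 KO (log2 difference -0.15, interval -0.55 to 0.25). Without WT replicate 1 its difference was 0.00030, so the lower mean rests on that library. Rpl7l1, which encodes a nucleolar relative of the Rpl7 protein, had 2537 and 2294 in WT and 2316 and 2182 in Opa1 KO (log2 difference -0.10, SE 0.12), while Rpl7 had 4446 and 4071 in WT and 5139 and 4006 in Opa1 KO (0.09, SE 0.17). Rpl22l1, whose transcript is held down by the Rpl22 protein in mouse cells, had 623 and 466 in WT and 623 and 661 in Opa1 KO. Its difference was 0.25 (SE 0.20), made of -0.00045 between replicates 1 and 0.50 between replicates 2. Without the 4 paralogues among the members, the SD of the genotype differences was 0.08 over 75 genes, and the median was 0.04.

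By the median over the members, the libraries of the same genotype differed more than the genotypes did. The median log2 difference of the 79 members was 0.33 between WT replicates 1 and 2 and 0.37 between Opa1 KO replicates 1 and 2, or 1.26-fold and 1.30-fold. Over all genes tested these medians were 0.02 and 0.03, and over genes with the same minimum level 0.04 and 0.07. Replicate 1 was above replicate 2 for 78 of 79 members in WT, for 76 in Opa1 KO and for 76 in both, where 38.8% of all genes tested were above in both. As a description across genes, which are not replicates, the difference between the WT libraries and that between the Opa1 KO libraries had a Pearson correlation of 0.51 and a Spearman correlation of 0.46 over the 79 members, against 0.85 and 0.67 over the 11779 genes.

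Exceptions were few. Rps4l was lower in replicate 1 in both genotypes, by 0.01 in WT and 0.13 in Opa1 KO on the log2 scale. Rpl38, a large subunit gene known in mouse embryos for its part in translating Hox mRNAs, was nearly level, with 1221 and 1197 in WT and 1208 and 1228 in Opa1 KO. Rpl22l1 was higher in WT replicate 1 and lower in Opa1 KO replicate 1 than in the other library of its genotype. Rps25 had 4966 and 3663 in WT but 4187 and 4075 in Opa1 KO, so its WT libraries were spread while its Opa1 KO libraries were close. At the other end, Rpsa differed by 0.50 in WT and 0.75 in Opa1 KO on the log2 scale.

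**Figure D3:**
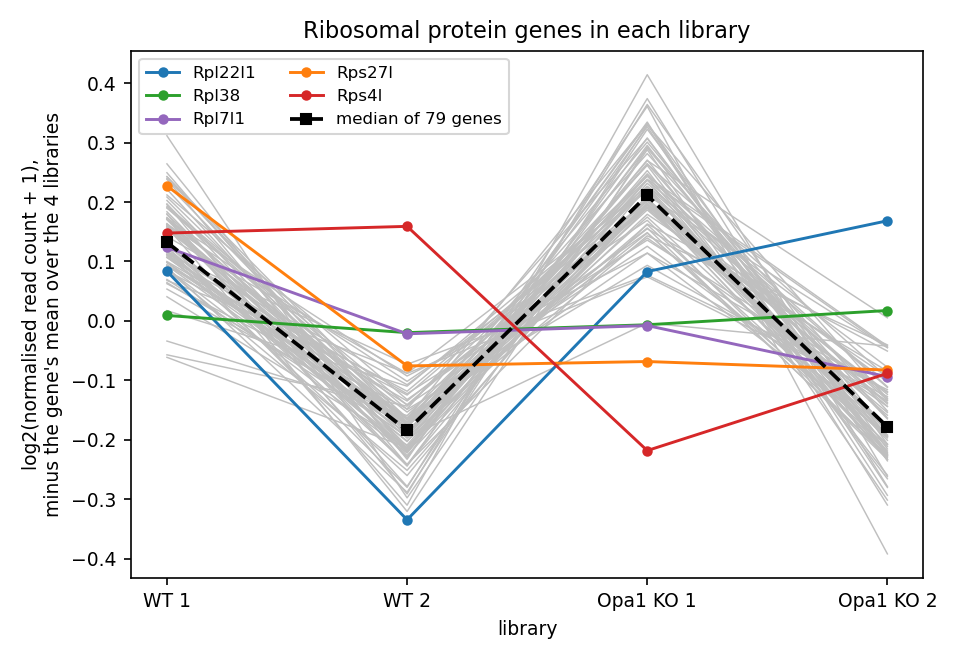
Log2(normalised read count + 1) of each ribosomal protein gene, minus its own mean over the 4 libraries, in each library (grey lines, with 5 named genes in colour and the median of the 79 genes as black squares). The median is lower in WT 2 than in WT 1 and lower in Opa1 KO 2 than in Opa1 KO 1, by 0.33 and 0.37 as the median over genes, while Rpl38 stays level and Rps4l, Rps27l and Rpl22l1 take other courses.

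**Figure D4:**
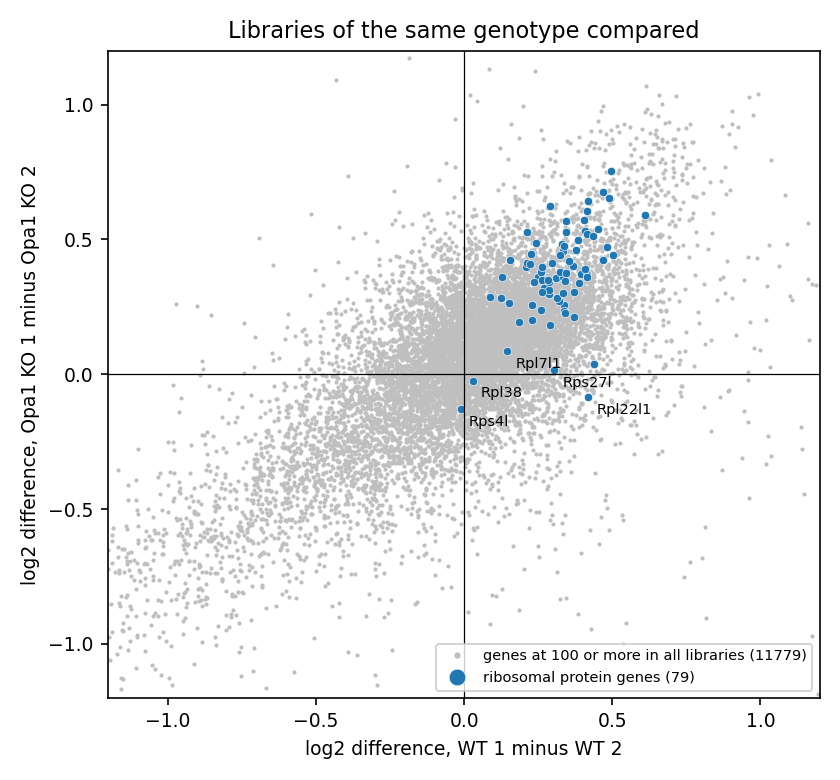
Log2 difference between the 2 WT libraries (x) and between the 2 Opa1 KO libraries (y) for the 79 ribosomal protein genes (blue) and for the 11779 genes with at least 100 normalised counts in every library (grey; 617 of them lie beyond the axes). The blue points sit in the upper right quadrant, with 76 of 79 above zero on both axes.

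Cell type markers differed between the same libraries, and their part in this difference was not tested. In bulk RNA, fewer cells of a type and less RNA per cell cannot be told apart. All 20 of 20 cell cycle genes were higher in replicate 1 of both genotypes, with summed normalised counts of 121833 and 77909 in WT and 98083 and 55746 in Opa1 KO. So were 11 of 12 genes of activated stem cells and progenitors (50813 and 41414 in WT, 46201 and 35222 in Opa1 KO) and 10 of 10 microglia genes (3112 and 819 in WT, 3356 and 1478 in Opa1 KO). All 8 of 8 ependymal genes were lower there (5898 and 37408 in WT, 9044 and 34202 in Opa1 KO), as were 9 of 9 endothelial genes (2545 and 3802 in WT, 3043 and 8720 in Opa1 KO). Of 19 genes of quiescent stem cells and astrocytes, 2 were higher and 9 lower in replicate 1 of both genotypes. Higher there were also 8 of 10 oligodendrocyte genes and 13 of 20 neuroblast and newborn neuron genes. For pericytes and smooth muscle 3 of 8 were higher and 2 lower, and for mature neurons 2 of 9 and 3. No defining marker of these lists was at 0 in all libraries, leaving aside mature neurons, for which this was not worked out. A defining marker of microglia was as low as 0.97. Those of the neural stem cell lineage were abundant, none of Aldoc, Gfap, Slc1a2 or Slc1a3 being under 2745 in any library.

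Several marker lists also differed between genotypes, beside the near-zero difference of the members, and their part in it was not tested. All 20 of 20 neuroblast and newborn neuron genes were below zero (median log2 difference -0.39), with the Opa1 KO libraries both under the WT libraries for 18 and 1 called lower by DESeq2. Their summed normalised counts were 276463 and 234803 in WT and 211172 and 174484 in Opa1 KO. All 20 of 20 cell cycle genes were below zero too (median -0.35), though their groups overlapped for each. Their medians within a genotype, replicate 1 minus 2, were 0.66 in WT and 0.81 in Opa1 KO. Between same-numbered libraries, Opa1 KO minus WT, they were -0.26 for replicates 1 and -0.46 for replicates 2. Above zero were 18 of 19 genes of quiescent stem cells and astrocytes (median 0.44, 11 without overlap, 6 called by DESeq2, sums of 226629 and 282421 in WT and 313236 and 378006 in Opa1 KO) and 10 of 10 oligodendrocyte genes (median 0.99, 10 without overlap, 0 called by DESeq2, sums of 47692 and 24766 in WT and 65018 and 62765 in Opa1 KO). So were 8 of 8 genes of pericytes and smooth muscle (median 1.22, 6 without overlap, 4 called by DESeq2, sums of 3337 and 4671 in WT and 6728 and 8927 in Opa1 KO). The microglia, endothelial and ependymal lists had medians of 0.52, 0.57 and 0.25, with 1, 0 and 0 genes whose groups did not overlap. The lists of activated stem cells and progenitors and of mature neurons each had a median of -0.05. In them, 5 of 12 and 4 of 9 genes were above zero. By limma and edgeR, 0 genes of these lists were called. Of all genes tested, 15.2% had both Opa1 KO libraries above both WT libraries, 15.7% had both below, and DESeq2 called 0.345%.

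The members' transcripts are short, so other short transcripts were set beside them. Among the 572 other protein-coding genes with at least 100 normalised counts in every library and a principal transcript under 1000 bases, the median log2 difference was 0.13 between the WT libraries and 0.06 between the Opa1 KO libraries. Among the 3660 with transcripts of 4000 bases or more these medians were 0.01 and 0.07.

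Other genes listed for TOP mRNAs were set beside the members. An annotated C-pyrimidine start was found in 9 of 20 of them. Of 21 other listed TOP mRNA genes, mostly translation factors, 20 were tested and 19 were higher in replicate 1 of both genotypes, with medians of 0.29 between the WT libraries and 0.36 between the Opa1 KO libraries. Their median genotype difference was -0.05 (5 above zero, 15 below, 0 called by limma, DESeq2 or edgeR). The smallest p among them belonged to Eif2s3x, a subunit of the initiation factor that brings the initiator tRNA, with 1768 and 1568 in WT and 1467 and 1294 in Opa1 KO (log2 difference -0.27, SE 0.14, limma adjusted p = 0.998). It was also the only gene of the list whose groups did not overlap, where 15.7% of all genes tested had both Opa1 KO libraries below both WT libraries. Hnrnpa1, a splicing factor, had 11089 and 8185 in WT and 8749 and 6288 in Opa1 KO (-0.36, SE 0.25), and Nap1l1, a histone chaperone, 5310.0 and 3954 in WT and 4380.5 and 3689 in Opa1 KO (-0.19, SE 0.20). The 3 tested hosts of small nucleolar RNAs with TOP starts differed by medians of 0.29 and 0.34 between libraries and 0.14 between genotypes.

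Ribosome biogenesis genes, which make and assemble the ribosome without being part of it, were set beside the members too. Of 72 tested, 62 were higher in replicate 1 of both genotypes, with medians of 0.19 and 0.17. Whether these medians differ from those of the members was not tested. Their genotype differences had a median of -0.09, with 17 above zero, 55 below and 0 called by limma, DESeq2 or edgeR. Imp4, a component of the small subunit processome, had 2057 and 1599.5 in WT and 1442 and 1194 in Opa1 KO (log2 difference -0.47, SE 0.19, limma adjusted p = 0.998), and both Opa1 KO libraries lower than either WT library. Utp3 (-0.22, SE 0.15) and Utp15 (-0.14, SE 0.13), of the same processome, did not overlap either. Over the list, both Opa1 KO libraries were under the WT libraries for 7 of 72 genes and above them for 3, where 15.7% and 15.2% of all genes tested were. Rrn3, an RNA polymerase I initiation factor, had -0.21 (SE 0.16).

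The 77 tested genes of mitochondrial ribosomal proteins, which serve translation inside the organelle that Opa1 shapes, had a median genotype difference of -0.07, with 13 above zero and 64 below and 0 called by limma, DESeq2 or edgeR. For 16 of the 77 the Opa1 KO libraries were both under the lower WT library and for 3 both above the higher, where 15.7% and 15.2% of all genes tested were. Between libraries their medians were 0.17 in WT and 0.12 in Opa1 KO, and 60 were higher in replicate 1 of both genotypes. The difference between mitochondrial and cytosolic ribosomal protein genes was not tested.

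**Figure D5:**
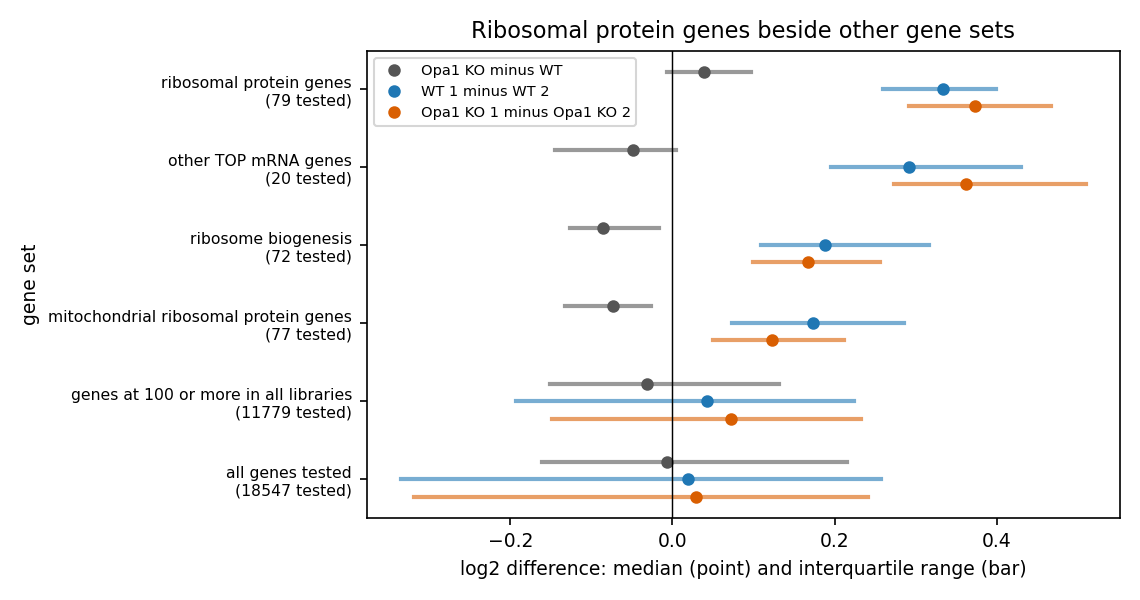
Median (point) and interquartile range over genes (bar) of the log2 difference between Opa1 KO and WT (grey), between the WT libraries (blue) and between the Opa1 KO libraries (orange) for ribosomal protein genes, other TOP mRNA genes, ribosome biogenesis genes, mitochondrial ribosomal protein genes, genes with at least 100 normalised counts in every library, and all genes tested. The blue and orange medians of the ribosomal protein genes are 0.33 and 0.37, while their grey median is 0.04.

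Among 15 regulators of TOP mRNAs and ribosome synthesis, 5 were above zero, 10 below and 0 called by limma, DESeq2 or edgeR. Eif4ebp1, the mTOR-controlled repressor of cap-dependent translation, had the smallest p, with 471 and 308 in WT and 809.7 and 628 in Opa1 KO (log2 difference 0.90, SE 0.28, limma adjusted p = 0.998). Both its Opa1 KO libraries exceeded both WT libraries. Eif4ebp2, its relative, went the other way, with 2081 and 1785 in WT and 1758 and 1413 in Opa1 KO (-0.29, SE 0.17). Max, the partner of the Myc proteins, had 576 and 679.7 in WT and 725 and 795 in Opa1 KO (0.28, SE 0.16), and Mycn had 0.16 (SE 0.17). The groups of Eif4ebp2 and Max did not overlap, and those of Mycn did. Over the list, both Opa1 KO libraries were above both WT libraries for 3 of 15 genes and below them for 1. The shares of all genes tested were 15.2% and 15.7%.

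Cytosolic ribosomal proteins whose symbols the rule does not match were set beside the members. Fau, which encodes a ubiquitin-like protein fused to a small subunit protein, had 1482 and 1102 in WT and 1278 and 1051 in Opa1 KO (log2 difference -0.14, SE 0.21). Rack1, a scaffold protein on the small subunit, had 4026 and 2996 in WT and 3803 and 2545 in Opa1 KO (-0.16, SE 0.27). Rpl36al, a copy of Rpl36a, was low, with at most 23.9 in any library and a log2 difference of 0.24 (SE 0.50). The genotypes overlapped for each of these 3 genes.

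The minimum of 100 removed 10 of the 89 symbols. Just inside it were Rpl13a (194 and 167 in WT, 229.6 and 159 in Opa1 KO), Rps4l and Rpl23a (570.4 and 449 in WT, 606 and 420.3 in Opa1 KO). Just outside were Rpl24 (59.1 and 34.0 in WT, 69.7 and 62.2 in Opa1 KO), Rps10 (45.5 and 30.1 in WT, 81.6 and 30.6 in Opa1 KO) and Rps3a3. Rpl24 and Rps10 encode core ribosomal proteins. Annotated exons on the same strand, of another transcript at Rpl24 and of the readthrough gene RPS10-NUDT3 at Rps10, cover 47.0% and 28.7% of their exons, and their part in the low values was not tested.

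Rps3a3 and Rps3a2, annotated as processed pseudogenes, were nearly silent except in 1 library. Rps3a3 had 10.7 and 14.6 in WT and 152 and 12.4 in Opa1 KO, and Rps3a2 3.87 and 4.86 in WT and 75.1 and 2.87 in Opa1 KO. Their parent Rps3a1, whose coding sequence is 99.5% identical to that of Rps3a2, had 4185 and 3496 in WT and 4364 and 3696 in Opa1 KO. The pseudogene counts are small beside these, so the parent's values cannot show where those reads came from. The other symbols under the minimum, among them Rpl10l and Rpl39l of the testis and Rpl3l of striated muscle, were at or near 0. Rpl10l and the pseudogene Rps12l1 were at 0 in every library, Rpl39l reached 0.957 in 1 library, Rpl3l stayed at or under 4.35, Rpl6l at or under 4.79 and Rpl32l at or under 1.09.

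Near-identical copies limit what can be said of single genes, because reads that fit several places can be dropped or split. By alignment of coding sequences, 26 of the 79 members had at least 1 other annotated gene with 95% identity over 80% of their length, led by Rpl7a with 31 and by Rps2 and Rps12 with 22 each. The exons of 11 members overlapped a protein-coding gene on the other strand, and for 5 of them, Rps25, Rpl31, Rpl35, Rpl5 and Rpl23a, other genes covered at least 20% of the exons. Rpl13a, the lowest member per kilobase, is overlapped over 35.4% of its exons, mainly by Gm45713 on the same strand, which is at 0 here. As the strand setting of the counting is not given, reads of genes that overlap on opposite strands cannot be told apart. In the 45 members with no near-identical copy and no protein-coding gene on the other strand, Rpl13a among them, a subset chosen after seeing the data, the median genotype difference was 0.03, the medians between libraries were 0.30 in WT and 0.37 in Opa1 KO, and 42 were higher in replicate 1 of both genotypes. Of 46 tested genes annotated as ribosomal protein pseudogenes by name, 20 were so, with medians of 0.35 and 0.17 between libraries and -0.04 between genotypes.

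The members are spread over 19 chromosomes, with 14 on chromosome 7 and 4 on the X. Those with an annotated C-pyrimidine start (21 genes) had medians of 0.37 and 0.44 between the WT and the Opa1 KO libraries and 0.07 between genotypes, and the 57 other protein-coding members had 0.32, 0.36 and 0.04. The difference between these subsets was not tested.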

How the data were processed

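RNA sequencing of 4 libraries of sorted YFP+ mouse cells, 2 WT and 2 Opa1 KO, was analysed from the table of deposited values. The deposited unit is a normalised signal: reads per gene from featureCounts, scaled by the authors with 1 size factor per library. HISAT2, SAMtools and DESeq2 are also named, with mm10. For versions, annotation release, library kit and strand setting, nothing is given in the sources used here. Whole reads were recovered for 100% of values (tolerance 1e-06), with size factors of 0.919 to 1.04. Columns were mapped by sample descriptions, and groups and replicate numbers by titles. The numbers in the column names differ from these replicate numbers. Not used were 12 repeated per-sample columns, the authors' own fold changes and p-values, and 5 of 6 files.

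Of 55421 identifiers, 55154 matched a symbol in GENCODE M21. Genes with at least 10 in at least 2 libraries were tested with limma 3.58.1 (trend, robust, R 4.3.3) on log2(value + 1), genotype as the only term, two-sided, Benjamini-Hochberg over all genes, threshold 0.05. Fold changes are on this scale, which understates low genes. edgeR 4.0.16 (quasi-likelihood, TMM) and DESeq2 1.42.0 were run on the recovered reads. The tests were also run on simulated counts with a fixed spread and no difference tied to replicate numbers. That check does not measure their power in these libraries. The edgeR test is the usual one for counts, but these deposited values were normalised, so limma came first. Alternatives were other scalings, pseudocounts, filters and tools, a replicate block, and each replicate left out. Levels per kilobase used 1 principal transcript per gene. Copies were found with BLAST 2.17.0 in the annotated transcripts.

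The members, gene lists and tests were chosen with earlier results of these data known. Named were the 5 highest and 5 lowest differences, the 5 highest levels per kilobase, the genes at the minimum, the stalk, 5S, tunnel and paralogue lists, a few genes fixed by name (Rpsa, Rps6, Rps19, Rpl22, Rps27, Rps27a and Rpl7), and in each other list up to 4 genes with the smallest p. Rpl38, Rps4x, Rps3a1, Rps3a2 and genes named for copies or overlaps were added after their values were seen. A few genes are counted in the totals but their own results are not reported here.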

Additional observations from a re-analysis of the deposited data

How the results depend on the processing

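No member was called under any alternative run that kept all 4 libraries. The median genotype difference was 0.04 in the main fit, 0.09 with library size only, 0.05 with TMM factors or limma-voom, and 0.06 with edgeR or DESeq2. With each replicate left out it ran from -0.16 to 0.23, so its sign depended on which library was left out. The share of reads in the members differed by 0.0571 percentage points (Opa1 KO minus WT), by 0.0563 over nuclear protein-coding reads, by 0.064 without the 100 highest other genes, and by -0.0495 to 0.164 with each replicate left out. Same-numbered libraries deviated together (r = 0.72 over 18547 genes). There are 2 pairs and the labels do not say what a number stands for, so what else these libraries share is not known. With the replicate block, limma called 182 genes and 0 members (smallest adjusted p of a member 0.22), with Opa1 at 0.000473 and Eif4ebp1 (0.90) at 0.0334. Opa1 also passed with no filter (0.0285) and by DESeq2 (1.71e-25). Members near zero changed sign with the setting, and the cause was not tested beyond the rescaling itself. With library size only, differences were 0.049 for Rpl23a, 0.048 for Rps6, 0.022 for Rpsa, 0.014 for Rplp2, 0.0069 for Rps25 and 0.0076 for Rpl5. With TMM factors they were 0.0054 for Rpl23a and 0.0046 for Rps6, with limma-voom 0.0047 for Rps6, with edgeR (TMM, then relative log expression) 0.016 and 0.015 for Rpl23a and 0.0017 and 0.0012 for Rpsa, and with DESeq2 0.016 for Rpl23a and 0.0028 for Rpsa. With each replicate left out, ranges that crossed zero were -0.032 to 0.43 for Rpl32, -0.0027 to 0.33 for Rpl39, -0.044 to 0.31 for Rps19, -0.050 to 0.30 for Rpl17, -0.10 to 0.34 for Rpl3, -0.15 to 0.34 for Rps27a, -0.087 to 0.27 for Rpl7, -0.18 to 0.35 for Rpl13a, -0.075 to 0.24 for Rpl13, -0.12 to 0.29 for Rpl41, -0.087 to 0.23 for Rpl4, -0.11 to 0.24 for Rplp1, -0.17 to 0.21 for Rplp0, -0.20 to 0.22 for Rpl8, -0.22 to 0.23 for Rpl10, -0.27 to 0.26 for Rpl23a, -0.17 to 0.16 for Rps6, -0.41 to 0.35 for Rpsa, -0.14 to 0.057 for Rplp2, -0.25 to 0.16 for Rpl5, -0.27 to 0.17 for Rps25, -0.26 to 0.14 for Rps14, -0.23 to 0.075 for Rpl28, -0.27 to 0.11 for Rpl11, -0.30 to 0.00030 for Rps27l, -0.40 to 0.024 for Nap1l1, -0.35 to 0.073 for Fau, -0.45 to 0.13 for Rack1, -0.16 to 0.63 for Rpl36al and -0.0081 to 0.34 for Mycn. Where an arm was left with 1 library, limma assumed that it varies like the others. With 2 libraries per group, intervals are wide and smaller differences were not detectable.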
